A study of Mus musculus with 42 samples.

Results

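The 9 genes described here encode the core of the mTOR pathway: Mtor, Rictor, Tsc1, Tsc2, Rheb, Rps6kb1, Rps6kb2, Eif4ebp1 and Eif4e. They were chosen by name, as every probe on the array that is not a control and whose gene is 1 of the 9. This gave 29 of 41174 probes and 9 of 27597 gene names. The array lists Mtor under its former symbol Frap1 and Rictor under an older clone name, and both were matched through RefSeq names. Mtor had 2 probes, Rictor 8, Tsc1 4, Tsc2 1, Rheb 1, Rps6kb1 6, Rps6kb2 3, Eif4ebp1 2 and Eif4e 2.

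Total RNA of liver, quadriceps muscle and visceral fat from female C57BL/6 mice was labelled with Cy3 and hybridised to 42 one-colour arrays. In each tissue, wild-type (Wt) and Akt1+/- mice were compared at 8 weeks (3 arrays per genotype) and at 35 weeks (4 arrays per genotype), which makes 12 groups. Akt1+/- mice carry 1 disrupted Akt1 allele in all tissues and were backcrossed to C57BL/6, and the labels name no treatment. The age of the older groups is the one that the sample labels give, and the methods give a different older age. The labels do not say whether samples of the 3 tissues came from the same mice.

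The mTOR kinase joins nutrient and growth factor signals to protein synthesis and works in a pair of complexes, of which the second contains Rictor and phosphorylates Akt. Akt lies upstream of the first complex: it inhibits the complex of Tsc1 and Tsc2, which otherwise keeps the small GTPase Rheb inactive, and active Rheb switches on the mTOR kinase. The first complex then phosphorylates the ribosomal protein S6 kinases, encoded by Rps6kb1 and Rps6kb2, and the repressor encoded by Eif4ebp1, which releases the cap-binding protein Eif4e. Most of this control acts on proteins, whereas the arrays measured only the level of each mRNA.

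The values below are levels on a log2 scale, the log2 of the background-subtracted intensity minus the 75th percentile of the same array, so that 0 is the 75th percentile and 1 unit is a 2-fold difference. The 75th percentile lay at intensities from 274 to 795, and 56.5 to 68.6% of probes per array stood well above background. Saturated spots numbered 0. Each of the 42 arrays correlated best with another array of its own tissue. Hepatocyte markers in liver (4 of 4 on the array), muscle fibre markers in muscle (5 of 5) and adipocyte markers in fat (5 of 5) were well above background on every array of their tissue. Akt1 itself was lower in Akt1+/- arrays than in Wt arrays in liver (difference −0.67, adjusted p = 0.0025) and fat (−0.55, adjusted p = 0.0065). In muscle the difference was −0.58 (adjusted p = 0.0747), and the Wt arrays at 3.34 to 3.52 at 8 weeks and 3.63 to 4.12 at 35 weeks did not overlap the Akt1+/- arrays at 2.72 to 3.19 and 2.91 to 3.39.

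Of the 29 probes, 18 were well above background on all 42 arrays, 5 on 13 to 40, 5 on 1 to 3, and 1, a Rictor probe, on none. Only 1 of the 8 Rictor probes was above background throughout. Each gene is described by its brightest probe unless another is named, and all 9 genes passed the filter on dim probes in every tissue. On mm8, the build of the array, these probes lie at chr4:147400941-147401000 (Mtor), chr15:6746631-6746690 (Rictor), chr2:28512471-28512530 (Tsc1), chr17:24323537-24323579 (Tsc2), chr5:24312888-24312922 (Rheb), chr11:86315442-86315501 (Rps6kb1), chr19:4157548-4157694 (Rps6kb2), chr8:28741351-28741410 (Eif4ebp1) and chr3:138493659-138493718 (Eif4e). In the fit of liver alone the brightest Rps6kb1 probe was the one at chr11:86317628-86317687, and in that of muscle alone the brightest Eif4e probe was the one at chr3:138494143-138494202. The exon or untranslated region in which each probe lies was not analysed here.

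Promoters are shown for the 4 members that were higher at 35 than at 8 weeks in liver (Mtor, Eif4e) or muscle (Rictor, Tsc2), so that what their start sites share can be read. Each is the 250 bases before a transcription start in RefSeq on GRCm38.p6, a later build than that of the probes, written 5′ to 3′ on the strand of the gene. Capitals mark matches on either strand to the E-box CACGTG, the forkhead motif GTAAACA, the GC box GGGCGG, the CCAAT box CCAAT and the ETS motif CGGAAG. In the Rictor window, a GC box and the CCAAT box share 2 bases.
Mtor, chr4:148448332-148448581, plus strand: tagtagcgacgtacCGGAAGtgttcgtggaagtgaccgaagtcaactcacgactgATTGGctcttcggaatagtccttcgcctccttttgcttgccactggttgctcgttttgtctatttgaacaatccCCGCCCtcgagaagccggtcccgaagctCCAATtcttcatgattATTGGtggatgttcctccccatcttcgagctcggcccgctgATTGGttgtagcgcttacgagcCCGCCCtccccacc
Eif4e, chr3:138527018-138527267, plus strand: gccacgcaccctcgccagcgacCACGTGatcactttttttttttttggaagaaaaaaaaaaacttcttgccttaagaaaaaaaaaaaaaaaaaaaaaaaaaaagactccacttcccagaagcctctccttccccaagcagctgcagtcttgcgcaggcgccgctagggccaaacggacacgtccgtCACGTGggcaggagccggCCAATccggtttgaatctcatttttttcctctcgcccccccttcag
Rictor, chr15:6708131-6708380, plus strand: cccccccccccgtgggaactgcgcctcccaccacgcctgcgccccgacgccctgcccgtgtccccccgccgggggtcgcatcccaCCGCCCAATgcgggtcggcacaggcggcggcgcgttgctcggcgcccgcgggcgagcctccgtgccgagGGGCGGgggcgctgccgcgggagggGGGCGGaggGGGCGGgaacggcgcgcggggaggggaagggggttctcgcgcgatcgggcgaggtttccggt
Tsc2, chr17:24632628-24632877, minus strand: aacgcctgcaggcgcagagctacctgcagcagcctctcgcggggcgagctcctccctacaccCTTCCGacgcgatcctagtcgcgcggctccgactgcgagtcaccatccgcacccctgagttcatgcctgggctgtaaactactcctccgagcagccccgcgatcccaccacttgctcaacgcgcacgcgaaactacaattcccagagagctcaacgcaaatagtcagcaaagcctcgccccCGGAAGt

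The 4 windows had no motif in common. Mtor held 2 GC boxes, 4 CCAAT boxes and 1 ETS motif, Eif4e 2 E-boxes and 1 CCAAT box, Rictor 4 GC boxes and 1 CCAAT box, and Tsc2 2 ETS motifs. Eif4e has a second start in RefSeq, and the 250 bases before it held no match to any of the 5 motifs. Promoters were found for 7 of the 9 members, Rps6kb2 and Eif4ebp1 being without one. Among the other members, Rheb held 1 E-box and 1 GC box, Tsc1 held 1 ETS motif and Rps6kb1 held none. Of 32851 promoters of the same length, 6.0% held the E-box, 3.2% the forkhead motif, 32.7% the GC box, 33.8% the CCAAT box and 13.6% the ETS motif. The forkhead motif, which FoxO factors downstream of Akt bind, was in no window of a member. The G and C content was 54.4% in the Mtor window, 48.8% in that of Eif4e, 81.2% in that of Rictor and 62.8% in that of Tsc2, against a median of 52.4% over all promoters. A match is a stretch of letters and does not show that a factor binds there.

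The comparison of genotypes asked whether loss of 1 Akt1 allele changed the mRNA of the pathway itself. In liver, Mtor was the 1 of 9 genes that passed the test for a difference averaged over both ages, and it was higher in Akt1+/- mice (1.32-fold). In muscle and fat none of the 9 genes passed. Among all genes tested, the liver test called 6.26%, the muscle test 0% and the fat test 0.822%. In muscle, limma called 0 of 17138 genes although 3170 had an unadjusted p under 0.05, and the two-way test of the methods called 1 gene after adjustment.

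Mtor, the kinase, stood in liver at 0.63, 0.52 and 0.30 on the 3 Wt arrays and at 0.84, 1.17 and 1.34 on the 3 Akt1+/- arrays at 8 weeks. At 35 weeks it stood at 1.42, 1.04, 1.11 and 1.25 in Wt and at 1.45, 1.16, 1.56 and 1.34 in Akt1+/-. At 8 weeks every Akt1+/- array was above every Wt array, while at 35 weeks the genotypes overlapped. The difference averaged over ages was 0.40 ± 0.10 (SE), with a 95% interval from 0.18 to 0.63 and an adjusted p of 0.0403. It was 0.63 at 8 weeks (adjusted p = 0.0553) and 0.17 at 35 weeks (adjusted p = 0.573), and these did not differ from each other past the threshold (interaction −0.46, adjusted p = 0.345). The call was close to the threshold: the adjusted p ran from 0.018 to 0.117 over 26 alternative settings, of which 9 kept it under 0.05, and leaving out 1 array ended it in 10 of 14 cases, all but Wt replicate 1 and Akt1+/- replicate 1 at 8 weeks and Wt replicate 1 and Akt1+/- replicate 2 at 35 weeks, with differences from 0.35 to 0.47. With the median in place of the 75th percentile as scale, the median of all genes moved from 0.02 to −0.11, and the Mtor difference was 0.27 (adjusted p = 0.0836), which is no longer a call, although Mtor stood 0.39 above the median of all genes under both scales.

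The second Mtor probe, at chr4:147298707-147298766 on mm8 (both together span 102.3 kb), gave a genotype difference in liver that did not pass the threshold (−0.00 ± 0.11, adjusted p = 0.984). On its own scale the 8-week livers stood at −1.15, −0.84 and −0.55 (Wt) and −0.63, −0.43 and −0.35 (Akt1+/-). The 35-week livers stood at −0.11, 0.10, 0.15 and 0.35 (Wt) and −0.37, 0.02, −0.27 and −0.43 (Akt1+/-), and the genotypes overlapped at both ages. Its difference was 0.38 at 8 weeks and −0.38 at 35 weeks, neither past the threshold (adjusted p = 0.249 and 0.219). With the mean of both probes in place of the brighter, the Mtor difference was 0.20 (adjusted p = 0.117).

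**Figure D1:**
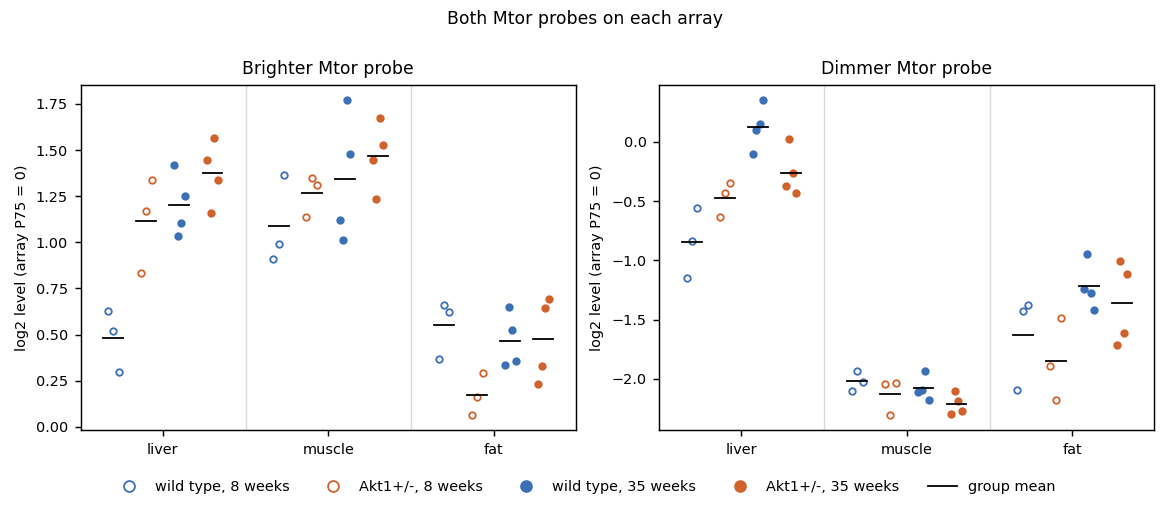
Levels of the 2 Mtor probes (y axis, log2 intensity minus the 75th percentile of the array) on each of the 42 arrays by tissue (x axis), with open points for 8 weeks, filled points for 35 weeks, blue for wild type, orange for Akt1+/- and a line at each group mean. In liver at 8 weeks the brighter probe was higher on every Akt1+/- array (0.84 to 1.34) than on every wild-type array (0.30 to 0.63), and the dimmer probe overlapped.

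In the same livers, markers of other cells also differed between genotypes. Of the 5 adipocyte markers, Cidec and Lipe were tested and both were higher in Akt1+/- livers (Cidec by 2.01, adjusted p = 0.0309), whereas Adipoq, Lep and Plin1 were above background on no 8-week array. The summed level of the list was 2.05 to 2.70 in Wt and 3.99 to 6.61 in Akt1+/- livers at 8 weeks, and 3.04 to 5.17 and 4.15 to 6.18 at 35 weeks. Of the 3 lymphocyte markers Cd3e was higher by 0.47 (adjusted p = 0.0274), and the summed level was −1.60 to −0.96 in Wt and −1.30 to −1.26 in Akt1+/- livers at 8 weeks, and −1.24 to −0.90 and −0.85 to −0.46 at 35 weeks. Foxl2, of the ovary list, was also called (higher by 0.87), and it was above background on no Wt array at 8 weeks. Gdf9, of the same list, differed by −0.73 and did not pass. None of the 4 hepatocyte markers passed. The part of these in the Mtor difference was not tested, and in RNA of whole tissue fewer cells of a type and less RNA per cell cannot be told apart. Liver samples of the 2 genotypes shared no array slide at either age, so that genotype and slide cannot be told apart in liver, and with slide as a random block the Mtor difference was 0.40 with an adjusted p of 0.0865.

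Mtor did not pass in the other tissues. In muscle it stood at 0.91, 0.99 and 1.36 in Wt and 1.14, 1.35 and 1.31 in Akt1+/- at 8 weeks, and at 1.12, 1.01, 1.77 and 1.48 and 1.45, 1.23, 1.67 and 1.53 at 35 weeks. In fat it stood at 0.37, 0.66 and 0.62 in Wt and 0.07, 0.16 and 0.29 in Akt1+/- at 8 weeks, and at 0.34, 0.65, 0.53 and 0.36 and 0.23, 0.33, 0.64 and 0.69 at 35 weeks. In fat at 8 weeks the order of the genotypes at this probe was thus the reverse of that in liver, with every Akt1+/- array below every Wt array. Of all genes, 27.1% did not overlap in that comparison in fat and 25.2% in liver. The second Mtor probe overlapped in fat at 8 weeks, at −2.09 to −1.38 in Wt and −2.18 to −1.49 in Akt1+/-. At the brighter probe the differences averaged over ages were 0.15 in muscle (95% interval −0.12 to 0.42) and −0.18 in fat (−0.39 to 0.02). The genotype difference in liver exceeded that in fat by 0.59 ± 0.16 (adjusted p = 0.0274), a test that 4.26% of all genes passed, and it did not differ from that in muscle past the threshold (0.25, adjusted p = 0.435; 0.896% of all genes passed). For muscle minus fat the difference was 0.34 (adjusted p = 0.292; 0.74% of all genes passed). That call held in 45 of 51 alternatives and was lost with the mean of both probes (0.38), with median scaling (0.45), with slide as a random block (0.59), and without Wt replicate 2 at 8 weeks in fat (0.56) or Akt1+/- or Wt replicate 3 at 8 weeks in liver (0.53 and 0.54).

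The other members of the pathway did not pass in any tissue, and their values are given in the order of the signal. Rictor, a subunit of the second complex, gave differences of 0.09 (liver), −0.10 (muscle) and −0.15 (fat). Tsc1 and Tsc2, the inhibitors, gave −0.03 and −0.05 (liver), −0.18 and 0.02 (muscle) and −0.19 and −0.07 (fat). Rheb, the activating GTPase, gave −0.06 (liver), −0.02 (muscle) and 0.16 (fat), the last with an unadjusted p of 0.0451 by limma and an adjusted p of 0.25. A dimmer Tsc1 probe, from −3.66 to −3.28 on the 7 Wt livers and from −3.19 to −2.51 on the 7 Akt1+/- livers, was higher in Akt1+/- by 0.53 ± 0.11 (adjusted p = 0.0254 over all probes, of which 4.56% were called), in contrast with the brightest.

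Among the targets, the S6 kinase genes were closest to a difference in muscle. Rps6kb1 stood there at 0.71, 0.79 and 0.67 in Wt and 0.45, 0.56 and 0.46 in Akt1+/- at 8 weeks, and at 0.79, 0.70, 0.37 and 0.71 and 0.50, 0.72, 0.11 and 0.43 at 35 weeks (difference −0.21 ± 0.09, adjusted p = 0.252). The 8-week groups did not overlap and the 35-week groups did. Rps6kb2 differed in muscle by −0.15 ± 0.06 (adjusted p = 0.25). In liver, the repressor gene Eif4ebp1 stood at 4.73, 4.67 and 4.96 in Wt and 4.46, 4.44 and 4.51 in Akt1+/- at 8 weeks, and at 4.52, 4.41, 4.54 and 4.61 and 4.55, 4.54, 4.30 and 4.11 at 35 weeks (−0.23 ± 0.08, adjusted p = 0.104). In fat, the cap-binding gene Eif4e stood at 1.02, 1.05 and 1.24 in Wt and 1.34, 1.43 and 1.83 in Akt1+/- at 8 weeks, and at 1.31, 1.34, 1.49 and 1.25 and 1.40, 1.39, 1.44 and 1.27 at 35 weeks (0.23 ± 0.08, adjusted p = 0.173).

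The groups were also compared by whether their arrays overlapped. At 8 weeks the genotypes did not overlap for 4 of 9 members in liver (25.2% of all genes), 2 of 9 in muscle (22.4%) and 5 of 9 in fat (27.1%). At 35 weeks, with 4 arrays against 4, they overlapped for all 9 members in the 3 tissues, and the shares of all genes that did not overlap were 12.6% (liver), 5.54% (muscle) and 9.87% (fat). Same-numbered arrays of the 2 genotypes deviated together at 35 weeks, where they also held the same position on their slides, so that pairing and position cannot be told apart. In a fit of the 35-week arrays with that number as a block limma called 0 of 9 members in each tissue, against 7.81% of all genes (liver), 0% (muscle) and 0.561% (fat). At an unadjusted p under 0.05 that fit had 0 members in liver (24.9% of all genes), 1 in muscle (Rps6kb2, −0.19, adjusted p = 0.237; 15.6%) and 0 in fat (16.2%). The 4 pairs pointed the same way for 3 members in liver (Mtor higher, by 0.03 to 0.46, Tsc2 and Rps6kb1 lower), 2 in muscle (Rps6kb2 and Eif4e lower) and 2 in fat (Eif4ebp1 higher, Rictor lower). The share of all genes whose 4 pairs pointed the same way was not computed, so these counts are not set against a background. No member passed the test for a genotype difference at a single age (called among all genes at 8 weeks: 2.16% for liver, 0% for muscle, 1.84% for fat; at 35 weeks: 3.56, 0.0992 and 1.72%). Nor did any pass the test of the interaction of genotype and age, which 0.564, 0 and 1.64% of all genes passed. At an unadjusted p under 0.05 by limma, the interaction was 1 member in liver (Mtor; 13.9% of all genes), 0 in muscle (8.40%) and 2 in fat (Tsc2 0.41, Eif4e −0.40; 20.1%), and the two-way test of the methods also called 0 after adjustment.

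At 8 weeks, 1 muscle slide held 3 Wt arrays and 1 Akt1+/- array, and 1 fat slide held 1 Wt array and 3 Akt1+/- arrays. Within that fat slide, Akt1+/- minus Wt was −0.45 for Mtor, 0.29 for Eif4e and 0.23 for Rheb, and within that muscle slide it was −0.27 for Rps6kb1 and −0.18 for Rps6kb2. The differences over all 8-week arrays were −0.38, 0.43, 0.26, −0.23 and −0.10. Each value within a slide rests on 1 array of one genotype and shares most of its arrays with these, so it is no independent check. Tsc2 in muscle had opposite signs within the slide (−0.12) and over all 8-week arrays (0.01). At 35 weeks each genotype filled a slide of its own in each tissue, so that genotype and slide cannot be told apart at that age. Scan day followed genotype in fat. The 35-week Wt fat arrays all had the same scan day, and the 35-week Akt1+/- fat arrays all had another. Among 8-week fat arrays, Wt replicates 1 and 2 had a scan day of their own, and Wt replicate 3 shared that of the Akt1+/- arrays. A genotype difference in fat therefore cannot be separated from scan day at 35 weeks, and only in part at 8 weeks.

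**Figure D2:**
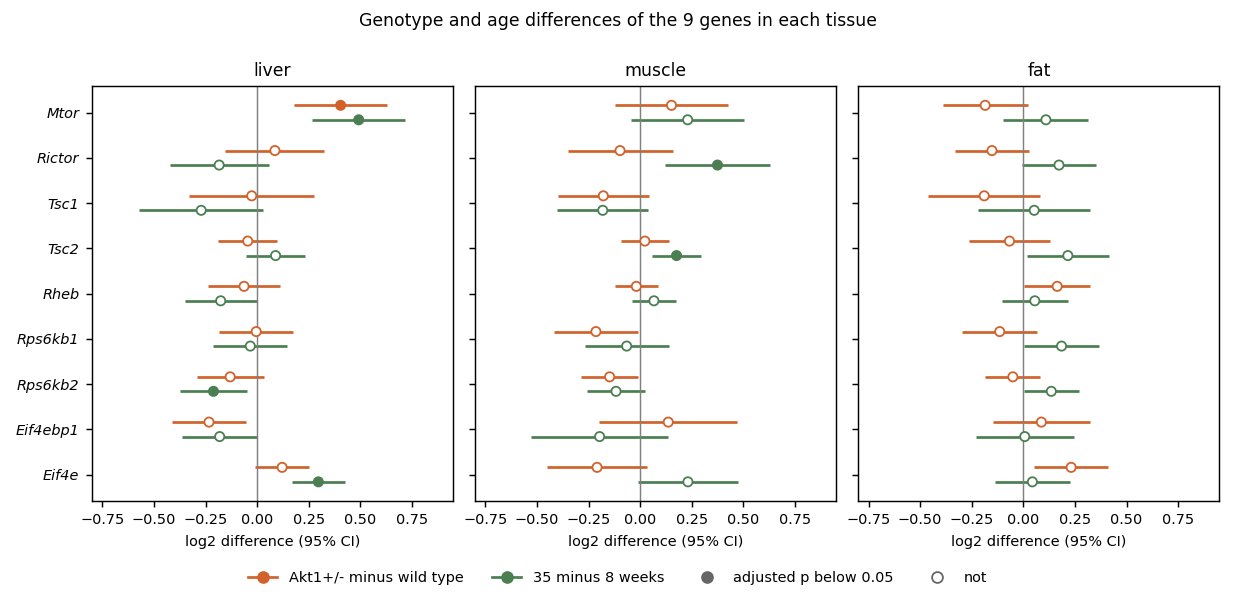
Genotype difference (Akt1+/- minus wild type, averaged over ages, orange) and age difference (35 minus 8 weeks, averaged over genotypes, green) of each of the 9 genes (y axis) in each tissue, as log2 difference with its 95% interval (x axis). Filled points passed an adjusted p of 0.05: Mtor for genotype in liver, Mtor, Rps6kb2 and Eif4e for age in liver, and Rictor and Tsc2 for age in muscle.

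The comparison of ages described the pathway at 8 and 35 weeks. In liver Mtor (1.41-fold) and Eif4e (1.23-fold) rose and Rps6kb2 fell, in muscle Rictor (1.30-fold) and Tsc2 (1.13-fold) rose, and in fat no member passed. These are 3 of 9 members in liver, against 35.1% of all genes, 2 of 9 in muscle (31.3%) and 0 of 9 in fat (19.3%), so that the shares in liver and muscle were no higher than among all genes. Arrays of the 2 ages were scanned on different days, so that age and scan day cannot be told apart.

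Mtor rose in liver by 0.49 ± 0.10 (adjusted p = 0.0033), from the values given above. It rose by 0.72 in Wt (adjusted p = 0.005), whose 8-week arrays all lay below the 35-week arrays, and differed by 0.26 in Akt1+/- (adjusted p = 0.253). The second Mtor probe rose in liver by 0.59 ± 0.11 (adjusted p = 0.0019), so that both probes gave the same direction. The Mtor call held in all 26 alternatives, with differences from 0.30 to 0.55. In muscle Mtor differed with age by 0.23 and in fat by 0.11, and neither passed (adjusted p = 0.183 and 0.446).

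Eif4e, the cap-binding protein that starts translation of capped mRNA, stood in liver at 1.78, 1.76 and 1.90 in Wt and 1.92, 2.04 and 2.02 in Akt1+/- at 8 weeks. At 35 weeks it stood at 2.21, 2.20, 2.16 and 2.10 in Wt and 2.13, 2.26, 2.36 and 2.19 in Akt1+/-. All 8 older arrays lay above all 6 younger ones. The rise was 0.30 ± 0.06 (adjusted p = 0.0025), and 0.35 in Wt alone (adjusted p = 0.0116). The second Eif4e probe did not show it (−0.06 ± 0.09), and the call was lost with the mean of both probes (0.12, adjusted p = 0.169) and with median scaling (0.10, adjusted p = 0.252). Median scaling moved the median age difference of all genes in liver from 0.02 to −0.18, and relative to that median the Eif4e difference was 0.28 under both scales.

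Rps6kb2, 1 of the 2 S6 kinase genes, stood in liver at −0.61, −0.57 and −0.31 in Wt and −0.73, −0.62 and −0.72 in Akt1+/- at 8 weeks. At 35 weeks it stood at −0.71, −0.86, −0.80 and −0.71 in Wt and −0.72, −0.70, −1.01 and −0.93 in Akt1+/-. The Wt groups did not overlap and the Akt1+/- groups did. It fell by 0.21 on the log2 scale (SE 0.08, adjusted p = 0.0444), a call kept only without Wt replicate 1 at 8 weeks or Akt1+/- replicate 1 or 2 at 35 weeks when single arrays were left out. Its second probe, at chr19:4158669-4158839 on mm8, rose instead, by 0.26 ± 0.07 in liver (adjusted p = 0.0186), 0.28 ± 0.08 in muscle (adjusted p = 0.0242) and 0.31 ± 0.07 in fat (adjusted p = 0.0097). The 2 probes of this gene therefore gave opposite directions in liver, and their mean differed by 0.02.

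Of the upstream members, Rictor stood in muscle at −1.25, −1.11 and −1.30 in Wt and −1.49, −1.30 and −1.15 in Akt1+/- at 8 weeks, and at −0.80, −0.96, −0.87 and −0.74 and −0.54, −1.0, −1.42 and −0.80 at 35 weeks. In Wt all older arrays were above all younger ones, and in Akt1+/- 1 older array, at −1.42, lay among the younger. Rictor rose by 0.37 ± 0.12 (adjusted p = 0.0292). The call was lost in 10 of 26 alternatives, among them 6 that leave out 1 array (Wt replicates 1 and 3 and Akt1+/- replicates 1 and 2 at 8 weeks, and replicate 4 of either genotype at 35 weeks, with adjusted p up to 0.0687). In liver Rictor differed by −0.18 and in fat by 0.17, and the age difference in liver was below that in muscle by 0.56 ± 0.15 (adjusted p = 0.0088), a test that 18.8% of all genes passed. This call was kept in 50 of 51 alternatives, and with the mean of the probes of each gene the difference was −0.01 (adjusted p = 0.986).

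Tsc2, which carries the GTPase-activating domain of the inhibitory complex, stood in muscle at 4.67, 4.72 and 4.80 in Wt and 4.62, 4.82 and 4.80 in Akt1+/- at 8 weeks. At 35 weeks it stood at 4.95, 4.85, 4.91 and 4.87 in Wt and 4.83, 4.92, 5.04 and 4.93 in Akt1+/-. All 8 older arrays lay above all 6 younger ones, the nearest being 4.83 and 4.82. The rise was 0.18 ± 0.05 (adjusted p = 0.027), and it was lost in 8 of 26 alternatives, 4 of them without 1 array (Wt replicate 1 or 2 or Akt1+/- replicate 1 at 8 weeks, or Wt replicate 1 at 35 weeks). In fat Tsc2 differed by 0.22 ± 0.09 (adjusted p = 0.115) and in liver by 0.09. Its partner Tsc1 differed by −0.27 in liver, −0.18 in muscle and 0.05 in fat, none past the threshold, and Rheb by −0.18, 0.07 and 0.06.

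In fat all 9 age differences were above 0 at the brightest probes, from 0.01 (Eif4ebp1) to 0.22 (Tsc2), with a median of 0.11 against 0.01 over all genes. Of all genes 9506 of 18366 were above 0, and of the other pathway genes described below 41 of 65. Among 23 single probes of the members, 20 were above 0 and 3 below. By the brightest probes none of the 9 passed after adjustment, and 3 had an unadjusted p under 0.05 by limma, against 34.4% of all genes: Tsc2, Rps6kb1 (0.19) and Rps6kb2 (0.14). The two-way test of the methods also called 0. Rps6kb2 stood in fat at −1.0, −1.12 and −0.97 in Wt and −1.24, −1.22 and −1.17 in Akt1+/- at 8 weeks, and at −0.95, −0.96, −1.0 and −1.19 and −1.04, −0.85, −0.92 and −0.98 at 35 weeks. Its age difference in fat exceeded that in liver by 0.35 ± 0.09 (adjusted p = 0.0061) and that in muscle by 0.25 ± 0.09 (adjusted p = 0.0465), tests that 16.2 and 16.4% of all genes passed. The difference from liver was called in 50 of 51 alternatives and the difference from muscle in 28 of 51. With the mean of the probes of each gene both were lost (fat above liver by 0.20, adjusted p = 0.136, and above muscle by 0.14, adjusted p = 0.301), and the second probe given above rose by similar amounts in the 3 tissues. The count of 0 in fat became 1 to 4 under 4 other settings, among them 3 when the probes of each gene were averaged.

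Within 1 genotype, the age difference passed for 2 of 9 members in Wt livers (Mtor and Eif4e; 22.6% of all genes) and for 0 in Akt1+/- livers (16.8%). In muscle it passed for 0 in Wt (17%) and 0 in Akt1+/- (14.8%), and in fat for 0 in Wt (13.4%) and 0 in Akt1+/- (9.43%). By groups that do not overlap between ages, 7 of 9 members were apart in Wt livers (37.5% of all genes) and 1 in Akt1+/- livers (25.4%). In muscle these were 3 in Wt (35.5%) and 2 in Akt1+/- (24.2%), and in fat 1 (28.8%) and 2 (22.4%). In Wt livers Mtor, Tsc2 and Eif4e were higher and Tsc1, Rheb, Rps6kb2 and Eif4ebp1 lower at 35 weeks. The difference in age change between the genotypes is the interaction given above, which no member passed.

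Some genes on the marker lists moved with age, in tests that called 31.3% of all genes in muscle, 35.1% in liver and 19.3% in fat. No list was tested against these shares. In muscle, 3 of the 5 adipocyte markers rose (Lep, Plin1 and Cidec), with a summed level of 2.88 to 4.83 at 8 weeks and 4.16 to 5.41 at 35 weeks, both erythroid markers fell (5.08 to 6.12 and 3.98 to 5.75), and 2 of 5 muscle fibre markers rose (11.65 to 11.98 and 11.89 to 12.09). In liver, 2 of 3 lymphocyte markers and 1 of 4 macrophage and leukocyte markers (Cd68) rose, and none of 4 hepatocyte markers changed past the threshold. In muscle the lymphocyte marker Cd79a rose and Inha, of the ovary list, fell, and in liver Foxl2 and Ctrb1, of the ovary and pancreas lists, rose and the erythroid marker Alas2 fell. In fat Adgre1, of the macrophage and leukocyte list, fell, Cyp11a1, of the ovary list, rose, and the muscle fibre markers Tnnt3 and Myh4 rose (Myh4 was above background on no Akt1+/- array at 8 weeks), with a summed fibre level of 3.93 to 6.65 at 8 weeks and 4.41 to 6.43 at 35 weeks. Tested markers on the same lists also moved the other way without passing. These were Zp3 (0.72), Foxl2 (0.17) and Mylpf (−0.09) in muscle, Gdf9 (−0.46), Cela1 (−0.06) and Hba-a1 (0.52) in liver, and Inha (−0.32) and Cd68 (0.08) in fat. The part of the markers in the age differences of the members was not tested.

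The probes of the 9 genes were also tested one by one. Of those well above background on all 14 arrays of a tissue, 4 rose and 2 fell in liver of 18 tested (31.7% of all such probes on the array were called), 4 rose and 0 fell in muscle of 19 (30.9%), and 4 rose and 0 fell in fat of 20 (19.9%). In fat, 2 other Tsc1 probes rose by 0.48 ± 0.14 and 0.47 ± 0.13 (adjusted p = 0.0345 and 0.0268), in contrast with 0.05 for the brightest. A dim Rps6kb1 probe at chr11:86320995-86321054 rose there by 0.69 ± 0.13 (adjusted p = 0.0042), from −4.54 to −3.88 on the 8-week arrays to −3.89 to −3.15 on the 35-week arrays. Another Rps6kb1 probe rose in muscle by 0.30 ± 0.09 (adjusted p = 0.0297). The second Eif4ebp1 probe fell in liver by 0.31 on the log2 scale (SE 0.11, adjusted p = 0.0451). A second Rictor probe was well above background on 2 of 6 younger and 7 of 8 older muscle arrays, and on 0 of 6 younger and 5 of 8 older liver arrays. A further Rictor probe was above background on 2 of 6 younger and 7 of 8 older fat arrays. No difference is given for these, since most younger arrays did not measure them.

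**Figure D3:**
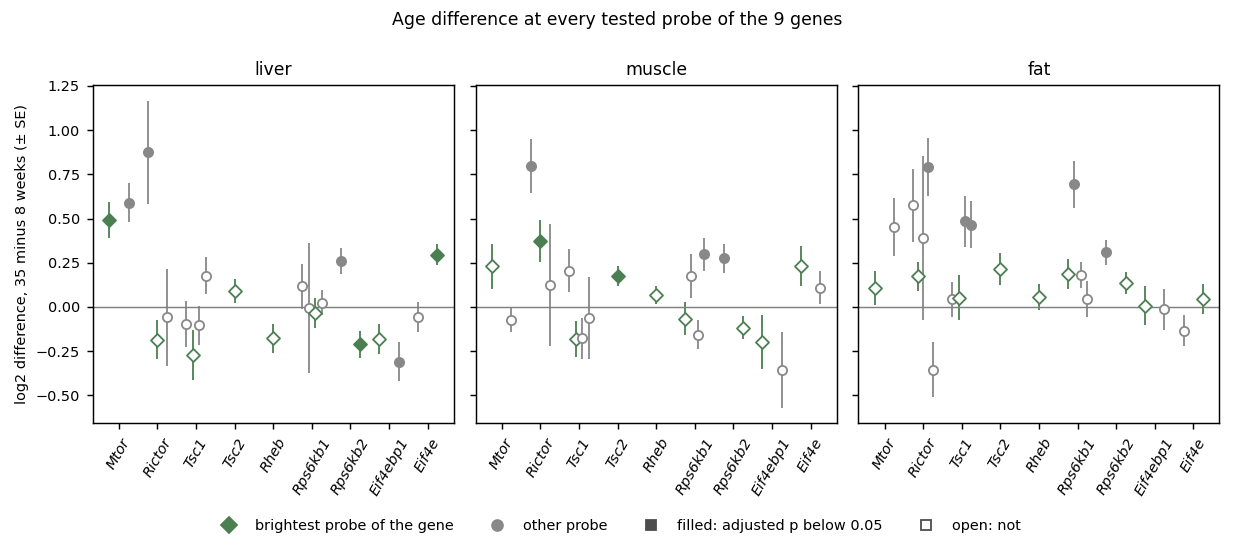
Age difference (y axis, log2, 35 minus 8 weeks, averaged over genotypes, with SE) of every tested probe of the 9 genes (x axis), with diamonds for the brightest probe of a gene, circles for its other probes and filled symbols for an adjusted p under 0.05. The 2 Mtor probes both lay above 0 in liver (0.49 and 0.59), and the 2 Rps6kb2 probes lay on either side of it (−0.21 and 0.26). The Rictor circles with filled symbols come from probes that were well above background on 0 of 6 younger arrays in liver and on 2 of 6 in muscle and in fat.

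The largest differences of the members lay between tissues. Over all 42 arrays, with the same probe in every tissue, 8 of 9 members differed between liver and muscle, all lower in liver, 8 of 9 differed between liver and fat, 4 in each direction, and 7 of 9 differed between muscle and fat, all higher in muscle. Of all genes, 85.8, 86.2 and 87.6% were called in these comparisons, so that a difference between tissues was not particular to the pathway. The median difference of the members was −0.46 for liver minus muscle, 0.02 for liver minus fat and 0.84 for muscle minus fat, against −0.06, 0.04 and 0.01 over all genes.

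Among the brightest probes, Tsc1 showed the widest gap. It ranged from 1.48 to 2.32 in muscle (median 1.93, n = 14), from −0.78 to 0.13 in liver (median −0.28) and from −0.96 to 0.18 in fat (median −0.25). Liver minus muscle was −2.21 ± 0.09 and muscle minus fat 2.23 ± 0.09, with no overlap of arrays, while liver and fat differed by 0.02 (adjusted p = 0.854). Its other probes gave smaller gaps between muscle and liver, with liver minus muscle at −0.84, −0.55 and −0.03. Tsc2 was likewise highest in muscle, at 4.62 to 5.04 (median 4.84), against 3.62 to 4.31 in fat (median 4.01) and 3.39 to 3.77 in liver (median 3.56). The differences were 0.84 ± 0.05 for muscle minus fat, −1.24 ± 0.05 for liver minus muscle and −0.40 ± 0.05 for liver minus fat, all past the threshold.

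Rheb had the narrowest range within a tissue, from 5.51 to 5.72 on the 14 muscle arrays (median 5.61), and lay at 4.55 to 5.05 in fat (median 4.74) and 4.28 to 4.94 in liver (median 4.47). The order muscle, fat, liver held past the threshold at each step (muscle minus fat 0.86 ± 0.05, liver minus fat −0.28 ± 0.05), though with median scaling the step from fat to liver was −0.10 and not called (adjusted p = 0.0781). Mtor ranged from 0.91 to 1.77 in muscle (median 1.33), 0.30 to 1.56 in liver (median 1.16) and 0.07 to 0.69 in fat (median 0.36). Muscle and liver arrays overlapped but differed by the test (liver minus muscle −0.25 ± 0.08, adjusted p = 0.0042), and fat was lower than both (liver minus fat 0.63, muscle minus fat 0.88). The second Mtor probe gave another order, with means of −0.32 in liver, −1.48 in fat and −2.12 in muscle, and with the mean of both probes liver minus muscle became 0.75. Rictor ranged from −1.49 to −0.54 in muscle (median −1.06), −1.74 to −1.06 in liver (median −1.48) and −1.92 to −1.32 in fat (median −1.55), with liver minus muscle at −0.34, muscle minus fat at 0.52 and liver minus fat at 0.17 (adjusted p = 0.0312).

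Among the targets, Eif4ebp1 was lower in liver than elsewhere. It ranged from 4.11 to 4.96 in liver (median 4.53), 5.72 to 6.84 in muscle (median 6.44) and 5.97 to 6.57 in fat (median 6.27). Liver minus muscle was −1.85 ± 0.09 and liver minus fat −1.72 ± 0.09, with no overlap of arrays, while muscle and fat differed by 0.13 (adjusted p = 0.165). Its second probe separated all 3 tissues, with means of 2.64 in muscle, −0.45 in fat and −2.75 in liver, so that liver minus muscle was −5.39 and muscle minus fat 3.09, wider than for Tsc1. Eif4e ranged from 1.69 to 2.50 in muscle (median 2.20), 1.76 to 2.36 in liver (median 2.11) and 1.02 to 1.83 in fat (median 1.34), so that fat was lower (liver minus fat 0.71 ± 0.06, muscle minus fat 0.86 ± 0.06) and the gap between liver and muscle was small with this probe (−0.15, adjusted p = 0.0131). Its second probe gave the same order with wider gaps, liver minus muscle being −0.87, liver minus fat 0.86 and muscle minus fat 1.73.

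By their brightest probes, the 2 S6 kinase genes had different orders. Rps6kb1 ranged from 0.11 to 0.79 in muscle (median 0.62), 0.17 to 0.81 in fat (median 0.43) and −0.26 to 0.49 in liver (median 0.19), and liver was below muscle (−0.46) and fat (−0.32; with median scaling −0.14, adjusted p = 0.0866, not called) while muscle and fat did not differ past the threshold (0.14, adjusted p = 0.0699). Rps6kb2 ranged from −0.95 to −0.43 in muscle (median −0.60), −1.01 to −0.31 in liver (median −0.71) and −1.24 to −0.85 in fat (median −1.0). Here fat was below liver (liver minus fat 0.35) and muscle (muscle minus fat 0.43), and liver and muscle did not differ past the threshold (−0.08, adjusted p = 0.0935). The order of Rps6kb1 depended on the probe. Another of its probes above background on all 42 arrays had means of −1.73 in fat, −1.99 in liver and −2.10 in muscle. Its dim probe at chr11:86320995-86321054 was also highest in fat (−3.79, against −3.99 in muscle and −4.30 in liver). The probe at chr11:86317628-86317687 kept the order of the brightest (0.38, 0.34 and 0.12).

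**Figure D4:**
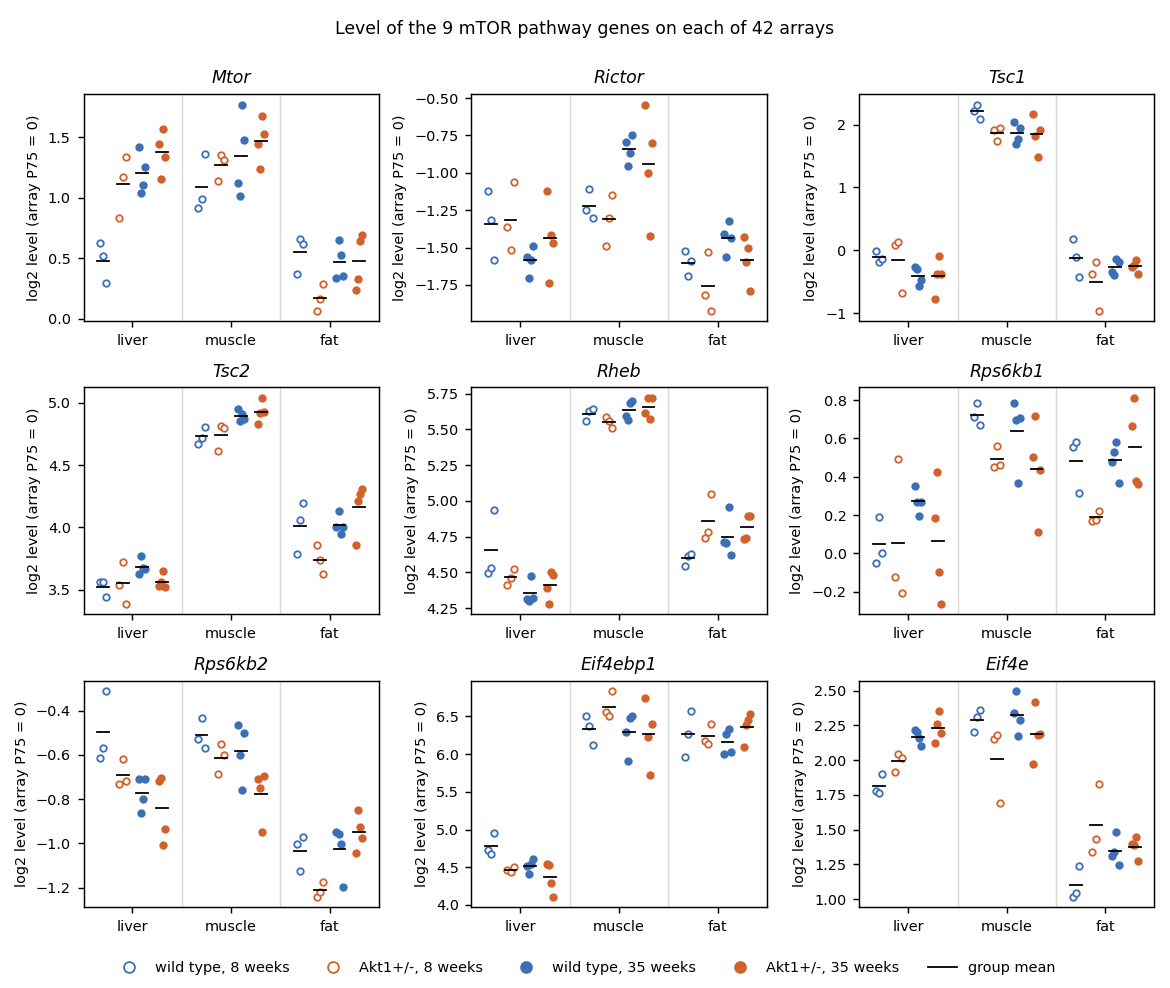
Level of the 9 genes (y axis, log2 intensity minus the 75th percentile of the array, with a scale of its own in each panel) on each of 42 arrays by tissue (x axis), with open points for 8 weeks, filled points for 35 weeks, blue for wild type, orange for Akt1+/- and a line at each group mean. Each panel shows the probe that was brightest over all arrays, which for Rps6kb1 in liver and Eif4e in muscle is not the probe of the fit of that tissue alone. Tsc1 was higher on every muscle array (1.48 to 2.32) than on any liver or fat array, and Eif4ebp1 was lower on every liver array (4.11 to 4.96) than elsewhere.

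Across the 12 group means, the members that most resembled each other were Tsc2 and Rheb (Pearson r = 0.950), Tsc1 and Rheb (0.945), Tsc1 and Tsc2 (0.918) and Mtor and Eif4e (0.846). Eif4e and Eif4ebp1 ran apart (−0.31). Over 19860 other genes, the closest to Mtor were Ap1m1 (0.965) and 1700086L19Rik (0.958), to Rictor Pfn4 (0.945) and Rngtt (0.928), to Tsc1 Ube3b (0.997) and Sypl (0.997), and to Rheb Tmem11 (0.994) and Ctdnep1 (0.993). For Eif4e they were Cstf2t (0.981) and Gabrg3 (0.970), and for Eif4ebp1 Ccdc85a (0.995) and Tppp3 (0.994). The closest gene was Map3k4 (0.995) for Tsc2, Chd2 (0.944) for Rps6kb1 and Rab24 (0.966) for Rps6kb2. These values describe 12 points that fall into 3 tissues and share their arrays, and they carry no test.

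Around the 9 genes, 65 other genes of the pathway with a probe on the array were followed (subunits of the complexes, upstream regulators, amino acid sensing and downstream targets). For genotype, the liver test found 1 of 64 that fell and 0 that rose (1.56%, against 6.26% of all genes). The muscle test found 0 of 64 in either direction, where 0% of all genes were called. The fat test found 2 of 65 that fell and 0 that rose (3.08%, against 0.822% of all genes). Akt1 accounts for the call in liver and for 1 of those in fat. The other was Eif4e3, a relative of Eif4e, which stood at 1.73 to 1.98 in Wt and 0.86 to 1.27 in Akt1+/- fat at 8 weeks and at 1.28 to 1.63 and 1.29 to 1.57 at 35 weeks, and fell by 0.45 on the log2 scale (SE 0.09, adjusted p = 0.0471). None of those tested passed the interaction in any tissue, which 0.564% (liver), 0% (muscle) and 1.64% (fat) of all genes passed.

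With age, 8 rose and 9 fell of 64 in liver (26.6%, against 35.1% of all genes), 8 rose and 6 fell of 64 in muscle (21.9%, against 31.3%), and 5 rose and 1 fell of 65 in fat (9.23%, against 19.3%). In liver the largest rises were those of Rragd, a GTPase of amino acid sensing (0.58 ± 0.10, adjusted p = 0.00096), and Eif4e3 (0.45 ± 0.11, adjusted p = 0.0096). The largest falls there were those of Grb10, an adaptor that the mTOR kinase phosphorylates (−0.94 ± 0.07, adjusted p = 4.58e-06), and Sesn2, a leucine sensor (−0.65 ± 0.15, adjusted p = 0.0046). In muscle Eif4ebp2, a relative of Eif4ebp1, rose by 0.72 ± 0.11 (adjusted p = 0.000639) and Tfeb, a transcription factor of lysosomal genes, by 0.50 ± 0.10, while Grb10 (−0.50) and the arginine sensor Castor1 (−0.46) fell. In fat Rragd (1.35 ± 0.34, adjusted p = 0.0158) and the kinase gene Sgk1 (0.40 ± 0.09) rose and Sesn1 fell (−0.59 ± 0.17). Eif4ebp2 rose in muscle from 1.89 to 2.23 on the 8-week arrays to 2.26 to 3.27 on the 35-week arrays, with no overlap. The median age difference of the list was −0.01 (liver), 0.01 (muscle) and 0.06 (fat), against 0.02, 0.01 and 0.01 over all genes.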

How the data were processed

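Agilent one-colour arrays of 42 samples in 12 groups were analysed. Per the file headers, the authors extracted spot intensity with Feature Extraction 9.5.3.1 (the submitters' processing notes give 9.1), and the processed intensity is background-subtracted. The deposited series table holds log2 values that matched the log2 processed intensity minus the 75th percentile of each array (r = 1.0 on every array, column medians from −3.69 to −3.27), and it served as an alternative. Coordinates of probes come from the array's own mm8 annotation, and names come from RefSeq by accession (24375 probes), symbol (6301) or older symbol (2426), the other 8072 keeping the name on the array.

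Levels are log2 intensity minus the 75th percentile over non-control probes. A probe was kept if 3 or more arrays of any group had it well above background, and the brightest stood for its gene. limma 3.58.1 in R 4.3.3 fitted 1 mean per group to the 14 arrays of each tissue, and to all 42 arrays for tissues. Genotype was averaged over ages and age over genotypes, with Benjamini-Hochberg adjustment over all genes and a threshold of 0.05. Python 3.11.15 with pandas 2.3.3, numpy 2.4.6 and matplotlib 3.10.9 made the tables and plots. Tested on simulated data with 200 genes changed by 1 log2 unit, the fit recovered 86% in liver, 87% in muscle and 84.5% in fat. It made 9, 10 and 11 false calls in these tissues. The genotype and age differences of the members were smaller than 1 log2 unit, and recovery of such differences was not tested.

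All 9 genes are named and every probe of theirs enters the counts, with Akt1, other pathway genes called for genotype, the 2 largest rises and falls with age per tissue, and for the likeness across group means the closest genes. The members and lists were chosen with earlier results of these data known. The alternatives were background correction by normexp with an offset of 50, median scaling, the deposited log2 values, other filters, the mean of probes or none collapsed, the replicate number or slide as a block, the two-way test of the methods, other models, and each array left out. The labels do not say whether arrays of a group were separate mice, and the study's legends give fewer samples per group than the 4 arrays at 35 weeks, so p-values measure the spread between these samples, and precision is limited by how many arrays each group has. Replicate numbers are shared by the genotypes, but same-numbered arrays deviated together only at 35 weeks, so a fit of those arrays with the number as a block was added, and the other fits were not paired. At 35 weeks same-numbered arrays of a tissue also held the same position on their slides, and at 8 weeks they did not. A pairing of samples and an effect of slide position therefore cannot be told apart.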

Additional observations from a re-analysis of the deposited data

Results flagged for a closer look

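In 4 cases the difference of a member changed between tissues past the threshold, by the contrast of 2 tissues in the fit of all 42 arrays. The genotype difference of Mtor was larger in liver than in fat by 0.59 (adjusted p = 0.0274), a test that 4.26% of all genes passed. This call was lost with the mean of both probes (0.38). The age difference of Rictor was lower in liver than in muscle, at −0.56 (adjusted p = 0.0088; 18.8% of all genes passed), but at −0.01 (adjusted p = 0.986) with the mean of the gene's probes. The age difference of Rps6kb2 was lower in liver than in fat, at −0.35 (adjusted p = 0.0061; 16.2% of all genes passed), and lower in muscle than in fat, at −0.25 (adjusted p = 0.0465; 16.4% of all genes passed). With the mean of the gene's probes these were −0.20 (adjusted p = 0.136) and −0.14 (adjusted p = 0.301), and the difference of muscle from fat was called in 28 of 51 alternatives.

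In 1 of 54 groups of 4 arrays, a single array stood apart from the other 3: Rheb was at 4.48 on Wt replicate 3 at 35 weeks in liver, against 4.30 to 4.32 on the others. By chance about 1 in 20 groups would show such a gap.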

How the results depend on the processing

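Counts of members called depended on the setting where they were small. For genotype in liver the 1 member became 0 with the mean of probes, without a filter on dim probes, without the interaction term, with the replicate block, with slide as a random block and with the two-way test of the methods (Mtor unadjusted p = 0.0029, adjusted p = 0.0517), and 2 with median scaling (Eif4ebp1 and Rps6kb2), with probes not collapsed and with normexp, and 0 to 1 without single arrays. For age in liver the 3 members became 7 with median scaling, 5 with probes not collapsed, 4 in the fit of 42 arrays, 2 with the mean of probes, without the filter, with the replicate block and with slide as a random block (Rps6kb2 was called in 10 of 26 alternatives), and 2 to 3 without single arrays. For age in muscle the 2 members became 0 with median scaling or without the filter, 1 in the fit of 42 arrays, with the mean of probes, with normexp and with the replicate block, 4 with probes not collapsed, and 0 to 2 without single arrays. For age in fat the 0 members became 1 in the fit of 42 arrays, 3 with the mean of probes, 4 with probes not collapsed and 2 with normexp, and 0 to 1 without single arrays. For genotype in muscle and fat and for the interaction the count was 0 in every setting run. Tissue counts stayed between 7 and 9. The cause of these changes was not tested.

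Directions reversed with the mean of probes for liver minus muscle of Mtor (0.75), liver minus fat of Rictor (−0.26) and age of Rps6kb2 in liver (0.023). Over 2401 values of single members under an alternative, 2268 kept direction and side of the threshold, 93 lost the call, 37 gained it and 3 reversed. Alternatives for differences between tissues in genotype or age were added after seeing the data.

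With median scaling, the percentage of calls in the upward direction went from 59.7 to 15.7% for genotype and from 57.2 to 24.5% for age in liver. Over all genes, calls for genotype in liver went from 1100 to between 245 (slide as a random block) and 3135 (median scaling), in fat from 151 to between 10 (no interaction term) and 570 (fit of 42 arrays), and in muscle from 0 to 286 (fit of 42 arrays). Calls for the interaction went from 99 to between 20 and 382 in liver, from 302 to between 129 and 902 in fat and from 0 to 29 in muscle (replicate block). Calls for age in fat went from 3536 to 5512 with probes not collapsed.

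Same-numbered arrays of the genotypes correlated in their deviations at 35 weeks (0.23 to 0.51 in liver, 0.26 to 0.53 in muscle, 0.11 to 0.34 in fat), each best with its own number in liver and muscle and 2 of 4 in fat, and not at 8 weeks (−0.19 to 0.07 over tissues). At 35 weeks they also held the same position on their slides, and at 8 weeks they did not, so that replicate and position cannot be told apart. With the replicate block, the calls for Mtor (genotype), Rps6kb2 (age, liver) and Rictor (age, muscle) were lost, the age difference of Rheb for liver minus muscle was gained (−0.24), and no other member's call changed. On the 35-week arrays alone, chosen after seeing the data, the replicate block left the count of members called for genotype at 0 in each tissue, while calls over all genes went from 626 to 1372 (liver), 17 to 0 (muscle) and 315 to 103 (fat). Probes dimmer than the background limit were not tested, and 3 or 4 arrays per group limit what could be called.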

Other observations

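The age test called 35.1% (liver), 31.3% (muscle) and 19.3% (fat) of all genes, and the other pathway genes are given here by role. Of 18 downstream genes in liver 4 rose and 4 fell, among them the translation factors Eef2 (0.40), Eif4e2 (0.29) and Eif4b (−0.31), against 1 of 9 complex subunits, Rptor (0.29), the defining subunit of the first mTOR complex. Of 26 genes of amino acid sensing 2 rose and 2 fell in liver, and of 27 in muscle 4 rose and 4 fell, the largest rise there being that of Depdc5 (0.38), a subunit of a complex that restrains mTOR, and Lamtor2 (0.36), a subunit of its lysosomal anchor. Of 11 upstream genes, 1 rose and 3 fell in liver, with Prkaa1, a catalytic subunit of the energy sensor AMPK, at −0.30 and Akt2 at −0.25, none changed in muscle, and 2 rose in fat, Prkaa2 (0.38) and Pdpk1 (0.31). These genes were chosen after their values were seen. All values are log2 differences between 35 and 8 weeks, and all named genes passed limma's adjusted threshold in the tissue given. The difference between roles was not tested.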
